A study of Mus musculus with 6 samples.

Results

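The kinesin genes of the mouse were followed in germinal vesicle (GV) oocytes, the meiotically arrested stage at which the oocyte nucleus is still intact. Members were all genes whose symbol starts with Kif or Kifc followed by a digit, and 39 of the 17577 listed genes met this rule. Of these, 38 encode kinesin motors. The remaining one, Kif1bp, encodes a kinesin-binding protein without a motor domain and met the rule only by its symbol. The motors were sorted by their known main role into 14 spindle kinesins, 17 transport kinesins and 7 kinesins of cilia or of other roles.

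Transcripts were measured by Smart-seq2, a method that amplifies full-length cDNA from very little RNA, and by the methods each cDNA came from 1 oocyte. The libraries came from C57BL/6 J mice aged 12 weeks. In 3 libraries the mice were Bnc1tr/tr, which means homozygous for a frameshift deletion that truncates basonuclin 1, a zinc finger protein of germ cells, and in 3 libraries they were wild-type (WT). By the methods, GV oocytes were collected after the mice were injected with pregnant mare serum gonadotropin (PMSG), a hormone that makes follicles grow, and the labels name no treatment. The allele is present in every cell of the mouse, so an effect within the oocyte and an effect of the surrounding ovary cannot be told apart.

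Kinesins are motors that turn ATP hydrolysis into steps along microtubules or into removal of tubulin from microtubule ends. Spindle kinesins slide, cross-link and shorten microtubules while chromosomes are aligned and separated, whereas transport kinesins carry vesicles, mitochondria and endosomes through the cytoplasm. A GV oocyte has no spindle yet, but it stores the transcripts and proteins from which the meiotic spindle and the first embryonic spindles are built.

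Bnc1 itself was read out first. Its level was 9.04, 6.51 and 5.83 FPKM (fragments per kilobase of transcript per mega mapped fragments) in Bnc1tr/tr replicates 1, 2 and 3 and 13.2, 12.5 and 16.2 FPKM in the WT replicates. The groups did not overlap, and the log2 fold change was -0.89 with a standard error (SE) of 0.20 (limma adjusted p = 0.009). FPKM totals ranged from 657550 to 724550 per library, and the depth estimated from the steps of low values ranged from 13 to 21.3 mega fragments. The estimated depths of the groups overlapped (exact two-sided permutation p = 0.60, where 0.10 is the smallest that 3 against 3 allows). The estimates are approximate. The regularity of the steps scored 6.7 at the depth chosen for Bnc1tr/tr replicate 1 and 6.59 at another depth, against 7.43 and 5.94 in Bnc1tr/tr replicate 3. Genes above 0 FPKM numbered 15258 to 15736 in Bnc1tr/tr and 13896 to 14576 in WT libraries, without overlap, and genes at 1 FPKM or more 10682 to 11035 and 9518 to 9748. Because each library is scaled to its own fragments, less RNA of a gene and more RNA of the others cannot be told apart. All 12 oocyte markers were listed, with summed levels of 9761 to 10940 FPKM in Bnc1tr/tr and 8637 to 13120 FPKM in WT libraries. Markers of other ovarian cells were read as well. Of 13 listed granulosa and cumulus markers, 4 were higher in every Bnc1tr/tr library than in every WT library, and the others overlapped. All 4 were among the 6 markers that averaged 1 FPKM or more and were tested. That is 66.7% of those 6, against 32.7% of all tested genes for which this holds. Fshr, which is 1 of the 4, had a WT mean of 0.35 FPKM, so it was tested only through the mutant group. The share is therefore no support for a rise in the list. The sums of 357 to 421 against 199.6 to 326 FPKM were mostly Serpine2, which was not called (limma adjusted p = 0.12). Of 8 theca and stroma markers 4 were higher in this way, with sums of 11.8 to 15.8 against 2.80 to 3.90 FPKM. Only 2 of the 8 averaged 1 FPKM or more, and these 2 were among the 4. That is 100% of the 2 tested, against the same 32.7% of all tested genes. The theca and stroma markers not among the 4 overlapped between genotypes.

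The start regions of the genes differed between role classes in one sequence element, and the windows printed here are those of the tested spindle kinesins that hold it next to the start and of the other called members. Windows came from the RefSeq promoter table of build GRCm38.p6, which holds the 250 bases before and the 50 bases after an annotated transcript start, and 30 of the 39 members were found in it. The others are Kif20a, Kif5a, Kif5b, Kif13b, Kif21b, Kifc2, Kifc3, Kif19a and Kif28. They were searched for TTTGAA on both strands, the core of the cell cycle genes homology region (CHR), an element bound by complexes that time transcription over the cell cycle, and for CCAAT on both strands, the NF-Y box that often accompanies it. A CCAAT that runs into TTTGAA or TTCAAA can share a base with it, as it can with its own complement, and each word was scored wherever it occurred. Printed here are 100 bases before and 30 bases after the start, 5′ to 3′ on the strand of the gene, with each TTTGAA or its reverse complement in capitals.
Kif22 (chr7:127042391-127042520, minus strand): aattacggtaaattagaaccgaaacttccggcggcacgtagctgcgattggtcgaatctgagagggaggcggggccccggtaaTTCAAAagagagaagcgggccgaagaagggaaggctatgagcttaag
Kif23 (chr9:61946770-61946899, minus strand): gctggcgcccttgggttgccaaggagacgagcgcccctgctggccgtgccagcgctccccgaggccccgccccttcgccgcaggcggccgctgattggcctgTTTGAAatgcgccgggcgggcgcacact
Kif20b (chr19:34922258-34922387, plus strand): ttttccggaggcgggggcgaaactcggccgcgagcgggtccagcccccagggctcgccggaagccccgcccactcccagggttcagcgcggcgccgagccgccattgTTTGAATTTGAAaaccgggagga
Kif4 (chrX:100625965-100626094, plus strand): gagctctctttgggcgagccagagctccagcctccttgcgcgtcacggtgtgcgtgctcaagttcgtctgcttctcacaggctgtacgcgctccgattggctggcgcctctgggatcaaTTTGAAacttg
Kif11 (chr19:37376282-37376411, plus strand): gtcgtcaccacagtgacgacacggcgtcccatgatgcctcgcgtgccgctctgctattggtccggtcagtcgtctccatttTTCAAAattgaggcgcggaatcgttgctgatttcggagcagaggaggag
Kifc1 (chr17:33890604-33890733, minus strand): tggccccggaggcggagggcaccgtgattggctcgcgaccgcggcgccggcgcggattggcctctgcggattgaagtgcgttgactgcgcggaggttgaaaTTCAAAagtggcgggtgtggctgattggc
Each of these spindle kinesins holds the word close to the transcript start. Its first base lies at position -17 in Kif22 and 3 in Kif23, counted from 1 at the first transcribed base with -1 just before it. Kif20b holds the word at positions 8 and 14, back to back. In Kif11 it begins at -19, in Kifc1 at 2 and in Kif4 at 20.

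The next windows belong to the called members that lack the word in all 300 bases or, for Kif2a, Kif1b and Kif9, in every window listed for the gene.
Kif2a (chr13:107022326-107022455, minus strand): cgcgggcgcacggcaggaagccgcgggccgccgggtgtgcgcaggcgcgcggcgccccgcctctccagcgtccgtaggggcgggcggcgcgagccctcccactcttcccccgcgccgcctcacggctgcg
Kif1b (chr4:149307704-149307833, minus strand): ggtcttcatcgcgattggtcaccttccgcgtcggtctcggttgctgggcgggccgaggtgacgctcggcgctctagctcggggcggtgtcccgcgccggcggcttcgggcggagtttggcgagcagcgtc
Kif5c (chr2:49619186-49619315, plus strand): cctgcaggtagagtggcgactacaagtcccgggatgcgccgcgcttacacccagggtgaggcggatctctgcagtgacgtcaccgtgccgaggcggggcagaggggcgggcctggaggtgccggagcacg
Kif9 (chr9:110476858-110476987, plus strand): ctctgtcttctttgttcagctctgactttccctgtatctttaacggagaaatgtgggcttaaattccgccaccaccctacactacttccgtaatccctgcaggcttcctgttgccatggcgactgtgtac
Kif2a is the spindle kinesin of this second set, and 81.7% of the bases in its first window are G or C.

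Over the whole windows, 11 of the 13 spindle kinesins with a window held TTTGAA, and the exceptions were Kif18a and Kif2a. Of 11 transport kinesins 1 held it, Kif1a, in one of its windows. The word occurred in 17.9% of all 32851 windows and in 13.3% of the 10832 windows of tested genes. CCAAT was found in 8 of the 13 spindle kinesins, always together with TTTGAA, and in 3 of the 11 transport kinesins, never with it. It occurred in 37.4% of all windows, and both words occurred in 6.95%. A TTTGAA that began within 20 bases of the start on either side was present in 8 of the 13 spindle kinesins and in 0 of the 11 transport kinesins, against 2.17% of all windows, a distance chosen after the positions had been seen. These counts describe letters in a window and carry no test. Across all tested genes with a window, 34.8% of the 1326 with TTTGAA and 31.04% of the 7220 without it were called changed between genotypes by the rule given further on for single genes.

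Kinesin transcripts of the oocyte were mostly those of spindle motors. The summed level of the spindle kinesins was 708, 620.1 and 647 FPKM in Bnc1tr/tr replicates 1, 2 and 3 and 729.6, 651 and 438 FPKM in the WT replicates. This was 82.4% ± 1.40 of all kinesin motor FPKM in the mutant and 83.0% ± 1.33 in the WT libraries (SD, n = 3 each). Transport kinesins summed to 130.4, 103.8 and 99.6 FPKM in Bnc1tr/tr and 120.2, 130.6 and 81.9 FPKM in WT oocytes, or 13.9% ± 1.05 and 15.3% ± 1.30 of the motor total. Kinesins of cilia and other roles made up the rest. Their sum was 30.6, 35.1 and 23.7 FPKM in Bnc1tr/tr and 13.4, 9.68 and 12.99 FPKM in WT oocytes, without overlap, and most of it was Kif9. The plot of summed FPKM shows the balance of spindle to transport motors at about the same place in both genotypes, and a low total in WT replicate 3.

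**Figure D1:**
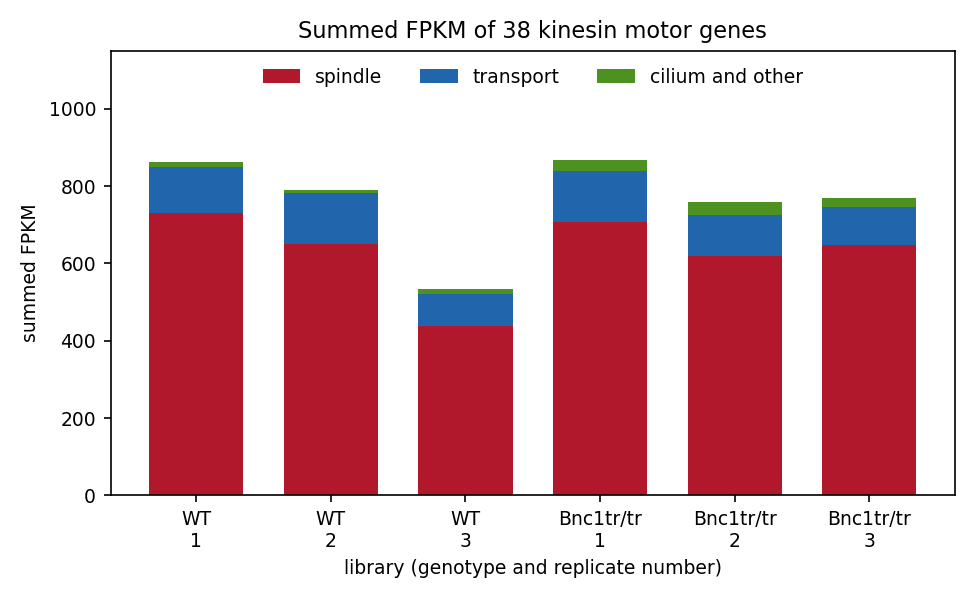
Stacked bars give the summed FPKM of the 38 kinesin motor genes in each library, by role class, with 1 bar for each of the 3 WT and 3 Bnc1tr/tr libraries. Spindle kinesins hold 81.5% to 84.5% of the sum in every library, and WT replicate 3 has the lowest spindle sum, 438 FPKM.

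WT replicate 3 stood apart from the other WT libraries in this family. It held the lowest WT value of 9 of the 11 spindle kinesins tested and of 6 of the 9 transport kinesins tested. Values fitted without it stand beside the results whose call or direction they change.

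A total of 23 members averaged 1 FPKM or more across the 6 libraries and were tested, 11 of the spindle, 9 of the transport and 2 of the cilium and other class, and Kif1bp. A gene was called changed where its log2 fold change of FPKM + 1 exceeded 0.5 in size and its limma adjusted p lay under 0.05. By this rule 6 of the 23 were called, or 26.1%, against 31.8% of all 10560 tested genes. Higher in Bnc1tr/tr were 5 members, 21.7% against 24.1% of all tested genes, and lower was 1, 4.35% against 7.68%. These shares lie near those of all genes. In 8 of the 23 members the 3 libraries of one genotype lay wholly above those of the other, 34.8% against 46.8% of all tested genes, and 7 of the 8 were higher in Bnc1tr/tr (32.7% of all tested genes) and 1 lower (14.1%).

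The role classes differed in which members were called, and no test of the difference between classes was made. Among the spindle kinesins Kif2a fell, Kifc1 rose and 9 did not pass. That is 9.09% in each direction, against 24.1% higher and 7.68% lower among all tested genes. Kifc1 entered the test only through the mutant group, where it was high, and its call was lost in 5 of 13 alternatives, so it is no support for a rise in the class. The median log2 fold change of the spindle kinesins was 0.027, which is -0.12 relative to the median of 0.15 over all tested genes and turned to 0.031 relative to all genes with quantile normalization. Among the transport kinesins Kif1b, Kif5c and Kif13b rose, none fell and 6 did not pass, with a median of 0.29, or 0.15 relative to all tested genes. That is 33.3% higher and 0% lower, against the same 24.1% and 7.68%. Without WT replicate 3 the relative medians were -0.22 for spindle and 0.23 for transport kinesins, Kif4 and Kif17 were called lower, and the calls of the other members stayed as they were. Without the members that serve both roles, Kif3a, Kif3b, Kif17 and Kifc3 among the transport and Kif2a among the spindle kinesins, the median relative to all tested genes was 0.68 for transport and -0.02 for spindle kinesins. The transport members left were the called Kif1b, Kif5c and Kif13b with Kif5b and Kif16b, so 0.68 is the value of Kif13b. All transport members taken out were uncalled, Kif17 with the lowest value of the class among them. The classes also sit at different levels. Of the tested spindle kinesins 7 had a mean from 10 to 100 FPKM and 2 a higher one, whereas 6 of the 9 transport kinesins lay between 1 and 10 FPKM. Over all tested genes the median log2 fold change was 0.28 in the band from 1 to 10 FPKM, 0.088 from 10 to 100 FPKM and -0.059 above, so the lower band leaned towards higher values in the mutant. In that lower band 30.1% of the genes were called higher. Transport kinesins were longer too, with 5 of 9 at 6000 bases or more against 2 of 11 spindle kinesins, and genes of that length had a median of 0.25. What level and length add to the difference between the classes was not tested.

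**Figure D2:**
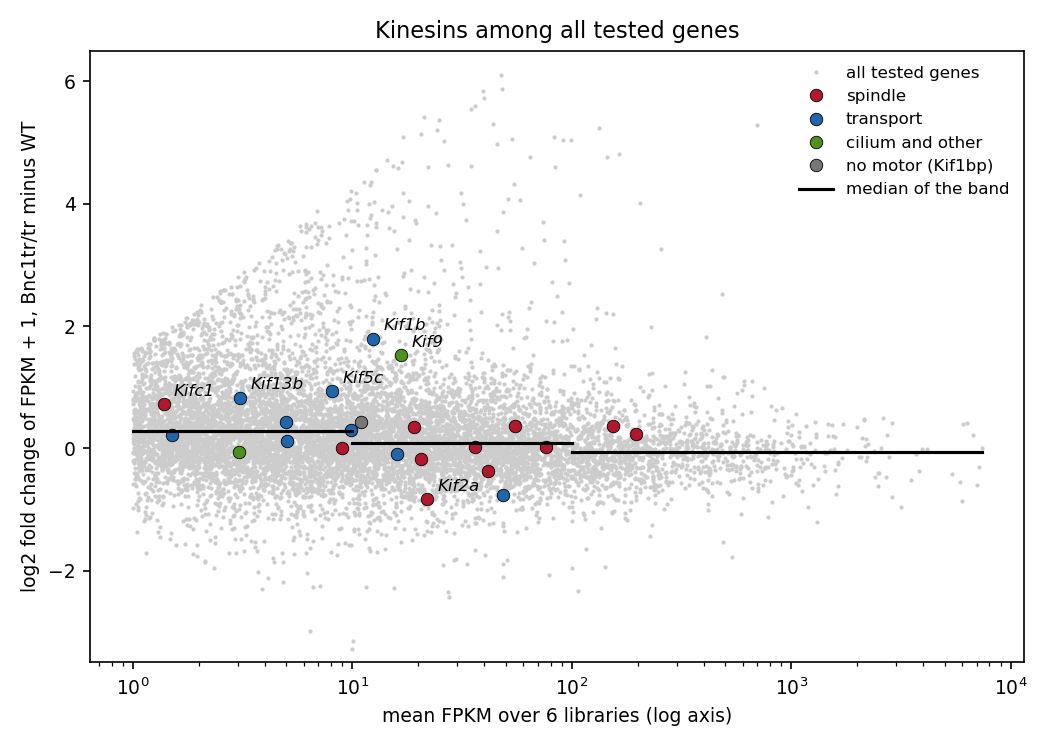
Each point is a gene, with its mean FPKM over the 6 libraries on a log axis and its log2 fold change of FPKM + 1 (Bnc1tr/tr minus WT) on the other axis. Grey points are the 10560 tested genes, coloured points the 23 tested kinesin members by role, and black lines the medians of 3 bands of level, which fall from 0.28 to -0.059 as level rises, with the names of the 6 called members written beside them.

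The spindle kinesins with the most transcript were those of chromosome arms and of the midzone. Kif22, the chromokinesin Kid that pushes chromosome arms away from the poles, measured 232, 214 and 174 FPKM in Bnc1tr/tr and 228, 217 and 107 FPKM in WT oocytes. Its WT mean of 184 FPKM ranked 745 among all listed genes, and its groups overlapped, with a log2 fold change of 0.23 and a 95% interval from -0.42 to 0.89 (limma adjusted p = 0.58). Without WT replicate 3 the sign turned, to -0.12. Kif23, the motor subunit of centralspindlin that organises the midzone for cytokinesis, came next with 191, 152 and 174 FPKM in Bnc1tr/tr and 173, 139 and 97.1 FPKM in WT oocytes. It was not called either, with a log2 fold change of 0.37 (limma adjusted p = 0.25), or 0.15 without WT replicate 3. Kif22 and Kif23 together held 48.7%, 48.3% and 45.2% of the kinesin motor FPKM in Bnc1tr/tr replicates 1, 2 and 3 and 46.4%, 45.0% and 38.4% in the WT replicates. Kif22 exceeded Kif23 in every WT library and in 2 of 3 Bnc1tr/tr libraries, with WT means of 184 ± 66.7 and 136 ± 38.04 FPKM (SD, n = 3 each).

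The cytokinesis and kinetochore motors followed. Kif20b, a motor of late mitosis and cytokinesis, measured 68.0, 71.4 and 91.8 FPKM in Bnc1tr/tr and 83.8, 79.8 and 63.0 FPKM in WT oocytes, and its log2 fold change was 0.03 (limma adjusted p = 0.93), or -0.10 without WT replicate 3. Kif18a, which dampens chromosome movements at microtubule plus ends, measured 67.7, 54.1 and 64.6 FPKM in Bnc1tr/tr and 54.1, 45.1 and 45.0 FPKM in WT oocytes. All Bnc1tr/tr libraries lay above all WT libraries, by 0.01 FPKM at the closest, and the log2 fold change of 0.36 was not called (limma adjusted p = 0.14). Kif2c, the depolymerase MCAK that corrects faulty kinetochore attachments, was at 39.4, 36.1 and 31.5 FPKM in Bnc1tr/tr and 44.8, 41.1 and 23.5 FPKM in WT oocytes. These groups overlapped, with a log2 fold change of 0.02 (limma adjusted p = 0.97) and an interval from -0.55 to 0.58, and without WT replicate 3 the value was -0.27.

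Kif4, a chromokinesin that also limits microtubule length in the midzone, leaned the other way. It measured 34.2, 34.5 and 38.9 FPKM in Bnc1tr/tr and 54.7, 50.3 and 36.3 FPKM in WT oocytes, so only WT replicate 3 lay within the mutant range. At -0.37, its log2 fold change was not called (limma adjusted p = 0.18). It passed without WT replicate 3, at -0.54 (limma adjusted p = 0.0362), and under upper-quartile scaling, at -0.53 (limma adjusted p = 0.0446), and median-ratio scaling, at -0.58 (limma adjusted p = 0.0338). Kif4 also shares 15.7% of its 31-base words with other genes, so its level depends on how the authors' counting divided shared fragments.

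Kif20a, the midzone motor MKLP2 that carries the chromosomal passenger complex, measured 21.6, 16.6 and 19.0 FPKM in Bnc1tr/tr and 28.0, 22.4 and 15.7 FPKM in WT oocytes. Its log2 fold change was -0.17 (limma adjusted p = 0.61), or -0.38 without WT replicate 3, and other genes contain 26.7% of its 31-base words. Kif11, the kinesin 5 motor that slides antiparallel microtubules apart and so makes spindles bipolar, measured 22.9, 17.3 and 23.5 FPKM in Bnc1tr/tr and 22.3, 17.8 and 10.9 FPKM in WT oocytes. Kif11 had a log2 fold change of 0.35 with an interval from -0.23 to 0.94 (limma adjusted p = 0.34), and without WT replicate 3 it was 0.08. Kif14, a citron kinase partner in cytokinesis, had group means of 8.91 ± 1.68 and 8.96 ± 2.06 FPKM (SD, n = 3 each), with an interval of the log2 fold change from -0.48 to 0.48, and without WT replicate 3 the value was -0.16. With all libraries, none of these intervals excludes a change of the size at which genes were called, except that of Kif14 and of Kif20b, whose intervals stay within 0.5 on either side.

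Kif2a was the spindle kinesin that fell. It belongs to the kinesin 13 family, which does not walk but strips tubulin from microtubule ends, acts at spindle poles and also prunes neuronal processes. Located at chr13:106958996-107022355 (GRCm38.p6), it measured 16.2, 12.95 and 17.2 FPKM in Bnc1tr/tr and 27.3, 26.7 and 30.7 FPKM in WT oocytes. Every mutant library lay below every WT library, at 0.547 times the WT mean. The log2 fold change was -0.84 with an SE of 0.17 (limma adjusted p = 0.0061). The call was kept in 14 of 14 alternatives at the threshold of 0.5, with values from -1.05 to -0.72. At a log2 fold change over 1, Kif2a was not called. The other tested depolymerase of its family in the spindle class, Kif2c, was not called. Other genes contain 22.1% of the 31-base words of Kif2a, most of them in Dimt1 with 18.4%.

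Kifc1, the kinesin 14 motor HSET that walks towards minus ends and focuses spindle poles, was the spindle kinesin that rose. Located at chr17:33875664-33890633, it measured 2.61, 2.05 and 1.29 FPKM in Bnc1tr/tr and 0.70, 0.80 and 0.83 FPKM in WT oocytes. The mutant libraries lay above the WT libraries, 2.55-fold by the means, with a log2 fold change of 0.72 and an SE of 0.20 (limma adjusted p = 0.022). Its WT mean of 0.777 FPKM is under the filter, so it was tested only through the group where it was high. The call was lost in 5 of 13 alternatives, with adjusted p from 0.0571 to 0.254 in those. Other genes contain 57.2% of its 31-base words, and its close relative Kifc5b alone 53.2%, which was listed at 0.02 to 0.22 FPKM, so the level of Kifc1 is uncertain.

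**Figure D3:**
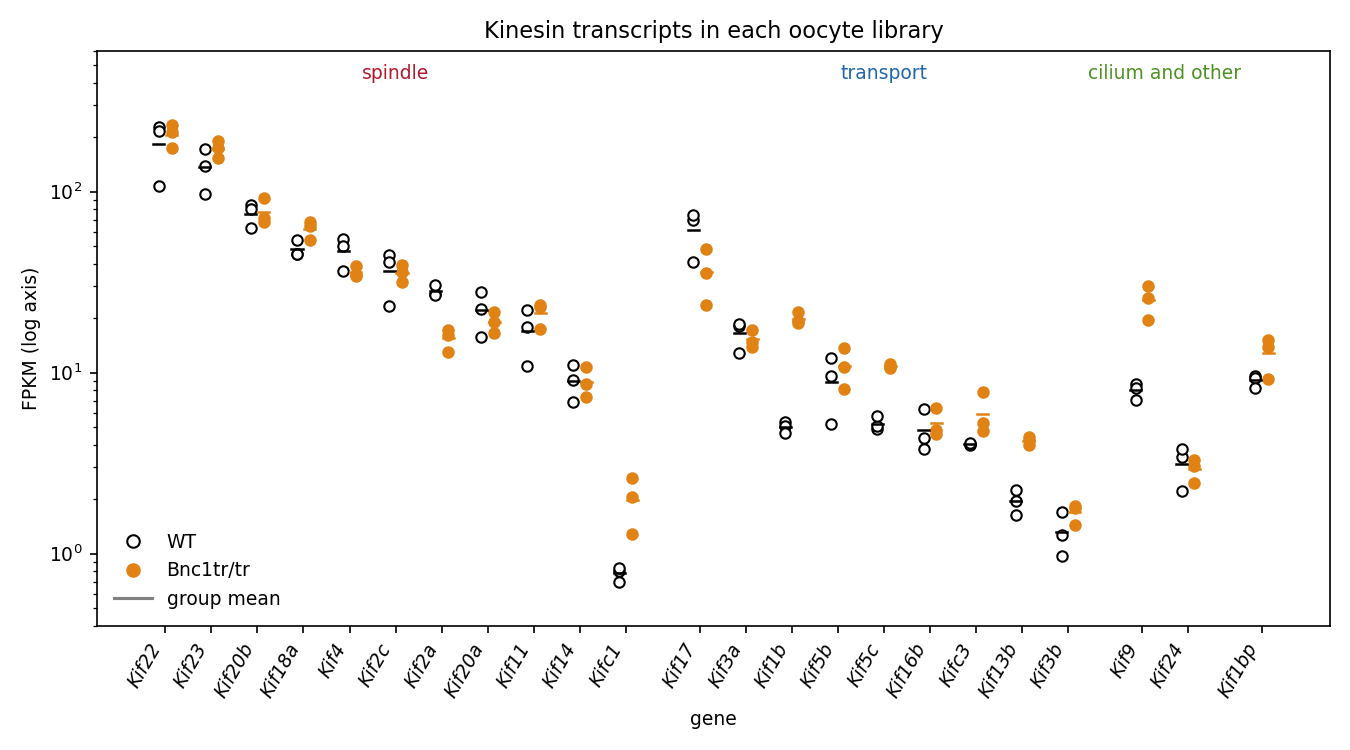
FPKM of each tested member on a log axis in the 3 WT libraries (open circles) and the 3 Bnc1tr/tr libraries (filled circles), with a line at each group mean, ordered within each role class by mean level. Kif1b, Kif5c, Kif13b, Kif9 and Kifc1 stand wholly above their WT libraries and Kif2a wholly below, while WT replicate 3 is the low point of most spindle kinesins.

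The transport kinesins that rose came from 2 families, the cargo-binding kinesin 3 motors and the conventional kinesin heavy chains. Kif1b, a kinesin 3 motor of mitochondria and synaptic vesicle precursors at chr4:149176319-149307773, showed the largest difference of any member tested. It measured 21.6, 18.8 and 19.4 FPKM in Bnc1tr/tr and 5.36, 5.08 and 4.63 FPKM in WT oocytes. The lowest mutant library was above 3 times the highest WT library, and the means of 19.9 ± 1.47 and 5.02 ± 0.368 FPKM (SD, n = 3 each) differed 3.96-fold. On the log2 scale the change was 1.79 with an SE of 0.16 and an interval from 1.44 to 2.15 (limma adjusted p = 5.3e-05). The gene has several isoforms, and the table gives 1 value per gene, so a shift between isoforms of different length could not be seen. Its partner by name, Kif1bp, which binds kinesin 3 motors, measured 13.9, 9.17 and 15.2 FPKM in Bnc1tr/tr and 9.61, 9.39 and 8.22 FPKM in WT oocytes and was not called, with a log2 fold change of 0.43 (limma adjusted p = 0.15). Without Bnc1tr/tr replicate 2, Kif1bp passed at 0.63 (limma adjusted p = 0.0426).

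Kif5c, a conventional kinesin heavy chain known mainly from neurons, lies at chr2:49619286-49774778. It measured 10.8, 11.2 and 10.7 FPKM in Bnc1tr/tr and 4.85, 5.06 and 5.77 FPKM in WT oocytes, 2.08-fold by the means and with little spread within either group. The log2 fold change was 0.93 with an SE of 0.15 (limma adjusted p = 0.002). Its ubiquitous paralog Kif5b had group means of 10.8 ± 2.77 and 8.91 ± 3.43 FPKM (SD, n = 3 each), with a log2 fold change of 0.29 and an interval from -0.36 to 0.95 (limma adjusted p = 0.48), and without WT replicate 3 the value was -0.0098. The neuronal Kif5a was at 0 FPKM in every mutant library and at most 0.02 FPKM in WT. Kif5b exceeded Kif5c in 2 of 3 libraries of each genotype, so the order of these heavy chains was not beyond the spread.

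Kif13b, a kinesin 3 motor of vesicles also known as GAKIN, lies at chr14:64652492-64809618. It measured 4.26, 3.99 and 4.38 FPKM in Bnc1tr/tr and 1.96, 2.24 and 1.64 FPKM in WT oocytes, 2.16-fold by the means. The log2 fold change was 0.83 with an SE of 0.16 (limma adjusted p = 0.0045), and with quantile normalization it was 0.40 and no longer called (limma adjusted p = 0.0758). Kif16b, the third tested kinesin 3 of the class and a motor of early endosomes, had means of 5.25 ± 0.957 and 4.81 ± 1.34 FPKM (SD, n = 3 each) and a log2 fold change of 0.12 (limma adjusted p = 0.71), or -0.012 without WT replicate 3.

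Kif17, a kinesin 2 homodimer of dendrites and cilia, was the most abundant transport kinesin and leaned lower in the mutant. It measured 48.0, 35.6 and 23.8 FPKM in Bnc1tr/tr and 69.6, 73.9 and 40.8 FPKM in WT oocytes, and WT replicate 3 lay within the mutant range. The log2 fold change was -0.77 with an interval from -1.45 to -0.09 (limma adjusted p = 0.082), which is not a call. Without WT replicate 3 it was -1.04 (limma adjusted p = 0.021) and without Bnc1tr/tr replicate 1 it was -1.005 (limma adjusted p = 0.0486). It also passed under upper-quartile scaling at -0.94 (limma adjusted p = 0.0268), median-ratio scaling at -0.99 (limma adjusted p = 0.0206) and quantile normalization at -0.88 (limma adjusted p = 0.0386). In WT oocytes Kif17 lay above Kif3a, the next transport kinesin, in every library, 61.4 ± 18.0 against 16.6 ± 3.20 FPKM (SD, n = 3 each).

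Kif3a and Kif3b form the heterotrimeric kinesin 2 of intraflagellar and vesicle transport. Kif3a measured 14.8, 13.8 and 17.2 FPKM in Bnc1tr/tr and 18.1, 18.7 and 12.9 FPKM in WT oocytes, with a log2 fold change of -0.10 (limma adjusted p = 0.73). Kif3b was lower, at 1.69 ± 0.224 and 1.31 ± 0.367 FPKM (SD, n = 3 each), with a log2 fold change of 0.22 (limma adjusted p = 0.37). Kif3b lay below Kif3a in every library of both genotypes. Kifc3, a minus-end motor of apical transport and cell junctions, measured 7.84, 4.73 and 5.25 FPKM in Bnc1tr/tr and 3.99, 4.04 and 4.08 FPKM in WT oocytes. All mutant libraries lay above all WT libraries, yet the log2 fold change of 0.44 was not called (limma adjusted p = 0.12), and other genes contain 23.3% of its 31-base words.

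Kif9, a motor of motile cilia and sperm flagella at chr9:110476738-110525174, showed the second largest difference among the members. It measured 25.8, 30.2 and 19.6 FPKM in Bnc1tr/tr and 8.68, 7.04 and 8.24 FPKM in WT oocytes, 3.16-fold by the means. The groups were well apart, with a log2 fold change of 1.53 and an SE of 0.20 (limma adjusted p = 0.00049). Kif24, which depolymerises microtubules at mother centrioles, was not called, with means of 2.94 ± 0.422 and 3.13 ± 0.817 FPKM (SD, n = 3 each) and a log2 fold change of -0.06, or 0.056 without WT replicate 3. The calls of Kif1b, Kif5c and Kif9, like that of Kif2a, were kept in 14 of 14 alternatives.

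**Figure D4:**
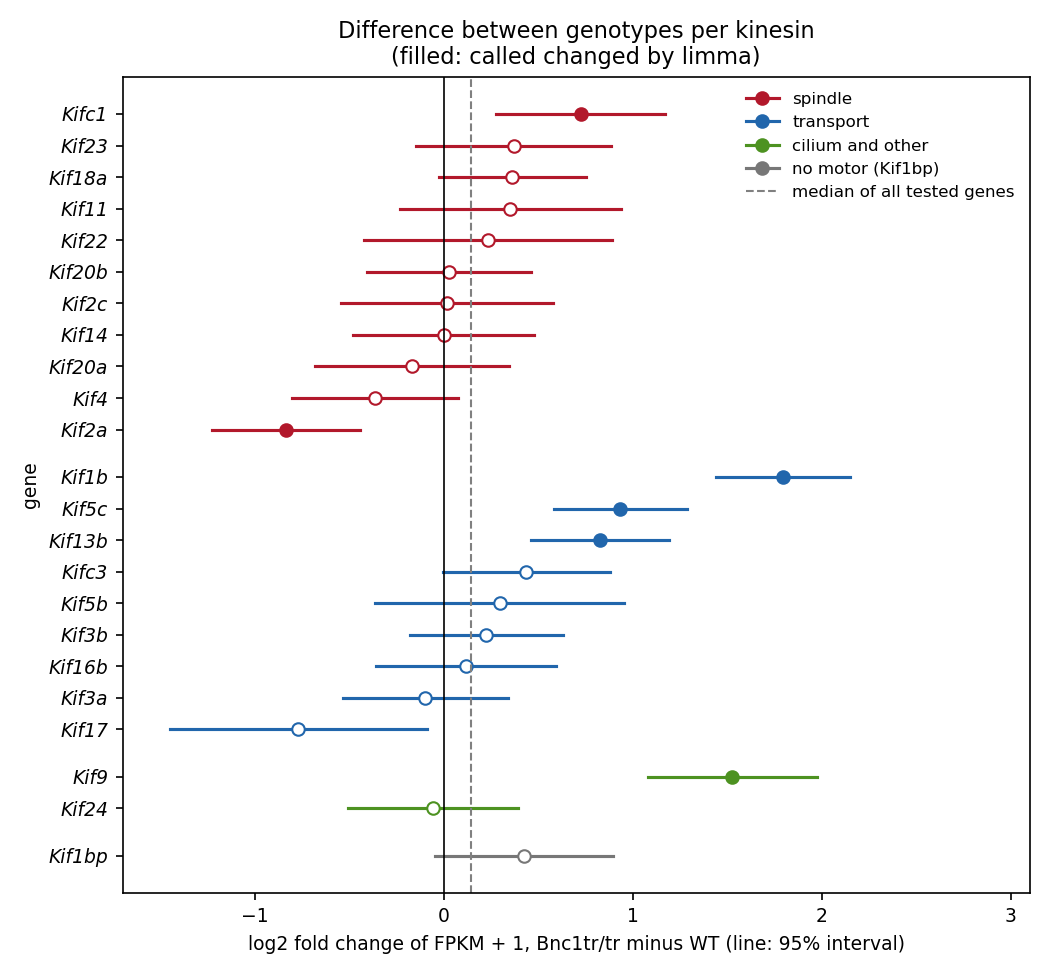
Log2 fold change of FPKM + 1 (Bnc1tr/tr minus WT) of each tested member with its 95% interval from limma, by role class, filled where the gene was called. The dashed line marks the median of all tested genes, 0.15, and the intervals of Kif1b, Kif9, Kif5c, Kif13b and Kifc1 lie wholly to its right and those of Kif2a, Kif17 and Kif4 to its left.

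The called kinesins were read beside the markers of other ovarian cells. Fshr is the receptor for follicle-stimulating hormone on granulosa cells. It was at 4.54, 5.83 and 5.37 FPKM in Bnc1tr/tr and 0.31, 0.74 and 0 FPKM in WT oocytes. Kitl, Nr5a2 and Serpine2 of the granulosa list were also higher in every Bnc1tr/tr library than in every WT library. Of these, Kitl was called (limma adjusted p = 0.018). The other listed granulosa markers overlapped between genotypes. Among them, Foxl2 and Amhr2, which define granulosa cells, were listed at 0 in every mutant library. In WT they were at no more than 0.03 and 0.21 FPKM, so they were near 0 in both genotypes and do not tell them apart. Inha, an inhibin subunit of granulosa cells, was 0.18, 1.81 and 0.09 FPKM in Bnc1tr/tr and 6.78, 3.45 and 0.04 FPKM in WT. Among theca and stroma markers, Dcn was 6.46, 6.95 and 4.93 FPKM in Bnc1tr/tr and 1.36, 1.48 and 2.02 FPKM in WT. Lyz2, a myeloid marker, was 5.81, 48.0 and 0 FPKM in Bnc1tr/tr and 0 in WT, with immune marker sums of 61.1 to 135.5 against 66.2 to 97.3 FPKM over all 10 immune markers. In WT these sums were mostly C1qb, at 82.7, 95.3 and 64.8 FPKM against 53.1, 70.65 and 58.6 FPKM in Bnc1tr/tr. Of the 10, 7 were at 0 in every WT library and none in every Bnc1tr/tr library. In Bnc1tr/tr replicate 3, Ptprc, Cd52, Lyz2 and Tyrobp of these 7 were at 0, while C1qa, Cd3e and Cd79a were not. Endothelial and red cell markers summed to 5.38 to 16.2 FPKM in Bnc1tr/tr and 10.1 to 11.7 FPKM in WT. In WT most of this was Pecam1, at 9.85, 9.92 and 7.55 FPKM against 5.13, 3.75 and 3.16 FPKM in Bnc1tr/tr. Of the 7 listed, 4 were at 0 in every WT library and none in every Bnc1tr/tr library. All 4, Cdh5, Hba-a1, Hba-a2 and Hbb-bs, were at 0 in Bnc1tr/tr replicate 3 as well, and Cdh5 reached 0.02 FPKM at most. Every Bnc1tr/tr library also had more genes above 0 than every WT library, and the share of all genes at 0 in WT only was not taken. The part of transcripts from these cells in the kinesin results was not tested.

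The remaining 16 members had a mean under 1 FPKM and were not tested. They were 3 spindle kinesins (Kif15, Kif18b and Kifc5b), 8 transport kinesins (Kif21a, Kif21b, Kif13a, Kif1c, Kif3c, Kif1a, Kifc2 and Kif5a) and 5 others (Kif27, Kif26b, Kif28, Kif26a and Kif19a). Kif15, which works beside Kif11 in keeping spindles bipolar, had the highest mean of these, with 0.853 ± 0.351 FPKM in the mutant and 0.807 ± 0.240 FPKM in the WT libraries (SD, n = 3 each). For the members, 3 fragments corresponded to 0.0168 to 0.0979 FPKM by the estimated depth and the transcript length, a floor that covers counting error only, so levels of Kif1a, Kifc2, Kif5a, Kif19a and Kif26a rest on a few fragments. Fitted without the filter, 1 of the 16 was called, against 19.4% of all genes so fitted. This was Kif26b, an atypical kinesin known from kidney development, at 0.80, 0.81 and 0.83 FPKM in Bnc1tr/tr and 0.29, 0.26 and 0.13 FPKM in WT oocytes (log2 fold change 0.57, limma adjusted p = 0.00722).

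Genes whose products load or steer kinesins were read next. Of 11 tested light chains, adaptors and the kinesin 7 gene Cenpe, which the symbol rule leaves out, 1 rose and none fell, 9.09% and 0% against 24.1% and 7.68% of all tested genes, with a median log2 fold change of 0.14, or -0.0049 relative to all tested genes. The one that rose was Arl8a, a small GTPase that couples kinesins to lysosomes, at 12.99, 13.7 and 13.7 FPKM in Bnc1tr/tr and 10.1, 7.76 and 7.03 FPKM in WT oocytes (log2 fold change 0.65, limma adjusted p = 0.021), and it was no longer called under upper-quartile, median-ratio or quantile scaling, with values of 0.50, 0.45 and 0.37. Its paralog Arl8b had means of 51.0 ± 6.21 and 50.5 ± 2.79 FPKM and Rhot1, the mitochondrial adaptor Miro1, 54.6 ± 3.56 and 63.5 ± 21.8 FPKM (SD, n = 3 each), neither called. Cenpe, a large kinetochore motor that brings chromosomes to the metaphase plate, had means of 49.9 ± 6.44 and 44.2 ± 3.35 FPKM (SD, n = 3 each) and was not called (limma adjusted p = 0.49). Fez2, a relative of a kinesin adaptor of axons, was not called at 20.8 ± 1.29 and 15.5 ± 2.98 FPKM (SD, n = 3 each).

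Dynein, the motor that walks against most kinesins, changed in both directions. Of 29 tested dynein and dynactin genes 6 rose and 5 fell, 20.7% and 17.2% against 24.1% and 7.68% of all tested genes, with a median of 0.11, or -0.03 relative to all tested genes. That relative median was 0.12 without WT replicate 3. Of the list, 28 averaged 1 FPKM or more in WT and 29 in Bnc1tr/tr, so not every tested gene reached the filter in WT. Dync1i2, an intermediate chain that holds the complex together, was 88.1, 105.4 and 97.8 FPKM in Bnc1tr/tr and 159.7, 187 and 197 FPKM in WT oocytes, and fell by 0.89 on the log2 scale (limma adjusted p = 0.0038). Dynll1, a light chain shared with many other complexes, fell by 0.87 (limma adjusted p = 0.0032) and Dctn5, a dynactin subunit, fell by 0.56 (limma adjusted p = 0.025). Dctn3, another dynactin subunit, rose by 0.57 (limma adjusted p = 0.025), a call lost with upper-quartile scaling at 0.40, with median-ratio scaling at 0.35 and without WT replicate 3 at 0.49. The most abundant of the list, Dynlt1b, was not called at 0.46 (limma adjusted p = 0.26), and without WT replicate 3 it was called higher at 0.80 (limma adjusted p = 0.0133).

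Among spindle assembly and central spindle factors, 4 of 44 rose and 6 fell, 9.09% and 13.6% against 24.1% and 7.68% of all tested genes. The median was -0.04, or -0.19 relative to all tested genes. In WT 43 of them averaged 1 FPKM or more, against 44 in Bnc1tr/tr, so here too not every tested gene reached the filter in WT. Aurkc, the germ cell Aurora kinase of the chromosomal passenger complex, was 1077, 816 and 819.8 FPKM in Bnc1tr/tr and 467, 395 and 400.2 FPKM in WT oocytes, a log2 fold change of 1.09 (limma adjusted p = 0.0019). Birc5, the survivin subunit of the same complex and the most abundant gene of the list, was not called at 1384 ± 172 and 1769 ± 42.2 FPKM (SD, n = 3 each), and was called lower with upper-quartile scaling at -0.53 and median-ratio scaling at -0.58. Tacc3, which stabilises spindle microtubules with clathrin, was not called at -0.38 (limma adjusted p = 0.27), and without WT replicate 3 it was called lower at -0.66 (limma adjusted p = 0.0159). Ran, the GTPase that releases spindle factors around chromosomes, fell by 1.14 (limma adjusted p = 0.0018), Nusap1, a microtubule bundling protein, fell by 0.81 (limma adjusted p = 0.0052) and Haus3, an augmin subunit, fell by 0.65 (limma adjusted p = 0.016).

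The tubulins, the track itself, had a median of -0.28, or -0.42 relative to all tested genes, with 1 of 13 tested genes higher and 2 lower, 7.69% and 15.4% against 24.1% and 7.68% of all tested genes. Tuba1a, an alpha tubulin abundant in neurons and many dividing cells, was 63.8, 45.1 and 35.5 FPKM in Bnc1tr/tr and 0.12, 0.91 and 0 FPKM in WT oocytes (limma adjusted p = 4.5e-06). Its WT mean of 0.343 FPKM is under the filter, so it was tested only through the mutant group, where it was high. It is therefore no support for a rise in the list. Tubb2a fell by 0.89 (limma adjusted p = 0.037) and Tuba3b fell by 1.22 (limma adjusted p = 0.014), and for both WT replicate 3 was the WT library nearest to the mutant ones. Without that library 6 tubulins were called lower, and 5 were with upper-quartile or median-ratio scaling. Of all 10560 tested genes, 1041, 1349 and 1535 were called lower in these settings, in this order, against 811 as deposited. Tubb4b, Tuba3a and Tubb6, the other abundant tubulins, were not called, although Tubb4b and Tuba3a were called lower without WT replicate 3, at -0.77 and -0.85, and with upper-quartile or median-ratio scaling. Tubulin genes are close in sequence, so their separate levels depend on how shared fragments were assigned.

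**Figure D5:**
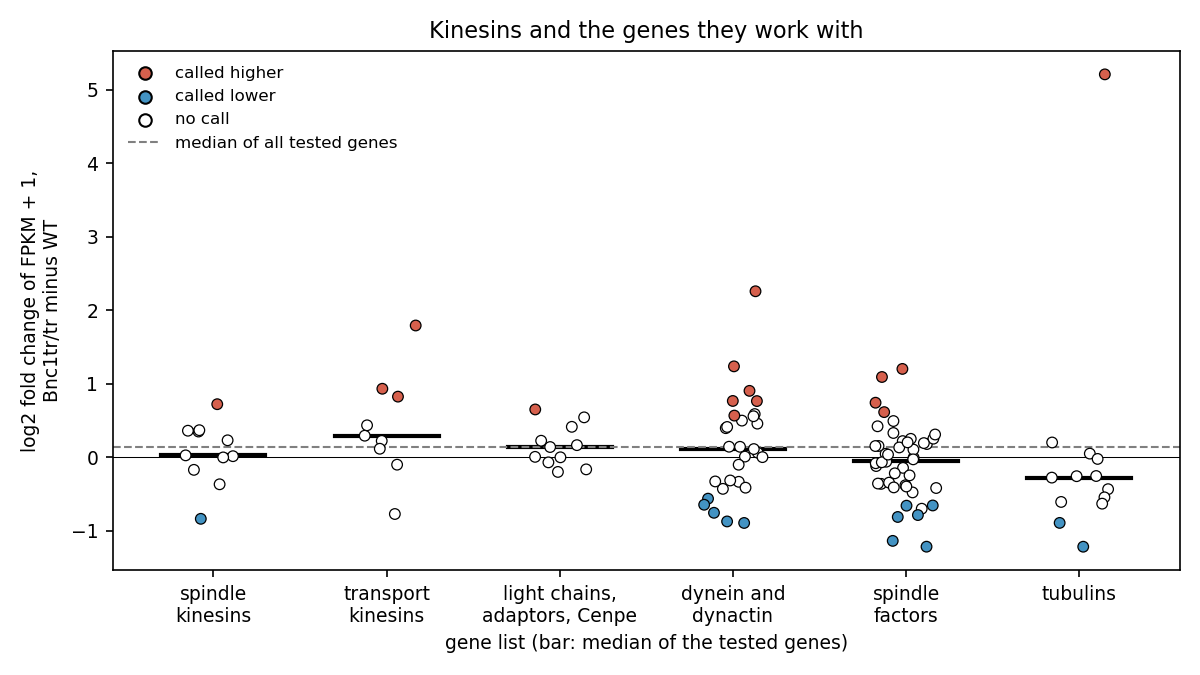
Log2 fold change of FPKM + 1 (Bnc1tr/tr minus WT) of the tested genes in each list, with a bar at the median of the list and colour for the call. The medians run from -0.28 for tubulins to 0.29 for transport kinesins around the dashed median of all tested genes, 0.15. Tuba1a, which passed the filter only through the mutant group, is the high point of the plot.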

How the data were processed

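Smart-seq2 libraries of single GV oocytes, 3 Bnc1tr/tr and 3 WT, were compared. The authors deposited 1 gene table per library in FPKM, which is normalised to transcript length and to the mapped fragments of the library. The submitters' processing notes name HISAT2 2.0.4, Bowtie2 2.2.5, RSEM 1.2.12 and GRCm38.p6, and the annotation and any gene filter are not given in the sources used here. RSEM divides fragments that match several genes, so members with shared sequence carry extra error, and amplified cDNA without molecular identifiers makes floors cover counting error only. No counts came with the values, and the smallest steps between low FPKM values gave an estimate of depth.

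The 17577 genes were matched to the RefSeq table by NCBI Gene ID, and 25 symbols that a spreadsheet had turned into dates were replaced through it. Groups and replicate numbers came from the labels. The study describes 3 biological replicates per genotype and comparisons between littermates, while the labels do not tie a library to an animal, so p-values measure the spread between these libraries. limma 3.58.1 in R 4.3.3 was fitted to log2(FPKM + 1) for the 10560 genes that averaged 1 FPKM or more, without covariates, and p-values were adjusted by Benjamini-Hochberg over all of them. Fold changes on this scale understate the change of low genes. The limma script was tested on simulated data.

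The members, role classes and partner and marker lists were written from general knowledge, with earlier results of these data known. Members with a mean of at least 10 FPKM or a call are given per library, and of each other list up to 4 most abundant and up to 4 called genes are named. A few other members, and markers such as Foxl2, Amhr2 and Inha, were singled out after their values had been seen. Kif2b, Kif6, Kif7 and Kif12 were not analysed here. Shared sequence is the share of a gene's 31-base words that occur in transcripts of other genes. Alternatives were a pseudocount of 0.1, no filter or a minimum mean of 5 FPKM, 3 other scalings, a log2 fold change over 1, trend and robust variances, a replicate block, classes without members of both roles, and leaving out each replicate. Counts of alternatives for single members leave out the log2 fold change over 1 and the change of classes. Figures were drawn with matplotlib 3.10.9.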

Additional observations from a re-analysis of the deposited data

How the results depend on the processing

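The limits are 3 libraries per genotype, 1 value per gene and a scale relative to the whole library. Of all calls, 75.8% were higher in Bnc1tr/tr as deposited, 60.5% with upper-quartile scaling, 56.0% with median-ratio scaling and 48.0% with quantile normalization, as the median of all tested genes moved from 0.15 to -0.003, -0.05 and -0.09. Genes called higher numbered 2547, against 1418 at a log2 fold change over 1, 1413 at a minimum of 5 FPKM, 1666 with quantile normalization and 1905 to 2498 with a replicate left out. Genes called lower numbered 811, against 259 at a log2 fold change over 1, 1349 with upper-quartile, 1535 with median-ratio and 1804 with quantile scaling, and 418 (without WT replicate 2) to 1041 (without WT replicate 3). Spindle kinesins called higher (1, Kifc1) numbered 0 at a log2 fold change over 1, at 5 FPKM, where Kifc1 is not tested, and with quantile normalization, and 0 to 1 with a replicate left out, being 0 without Bnc1tr/tr replicate 1 or 2 or WT replicate 1 or 2. Spindle kinesins called lower (1, Kif2a) numbered 0 at a log2 fold change over 1 and without members of both roles, which removes Kif2a, 2 with upper-quartile and median-ratio scaling, where Kif4 joins, and 1 to 2 with a replicate left out. Transport kinesins called higher (3) numbered 1 at a log2 fold change over 1 and 3 whichever replicate was left out. They numbered 2 at 5 FPKM, where Kif13b is not tested, and 2 with quantile normalization, where Kif13b is no longer called. Transport kinesins called lower (0) numbered 1, Kif17, with upper-quartile, median-ratio and quantile scaling and with the replicate block, and 0 to 1 with a replicate left out.

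The median relative to all tested genes was 0.031 for spindle kinesins with quantile normalization, where it turned sign, -0.02 without members of both roles and -0.22 to -0.0024 with a replicate left out. That of transport kinesins was 0.023 without the filter, 0.68 without members of both roles and 0.074 to 0.31 with a replicate left out. Several uncalled members with a log2 fold change near 0 turned sign. With median-ratio, quantile and upper-quartile scaling in this order, Kif16b was -0.066, -0.26 and -0.026, Kif20b -0.19, -0.059 and -0.14, and Kif2c -0.20, -0.12 and -0.15. Kif3b was -0.22 with quantile normalization and Kif14 0.00012 with a pseudocount of 0.1. With a replicate left out, the log2 fold change ran from -0.16 to 0.14 in Kif14, -0.012 to 0.30 in Kif16b, -0.38 to 0.016 in Kif20a, -0.10 to 0.11 in Kif20b, -0.12 to 0.42 in Kif22, -0.23 to 0.056 in Kif24, -0.27 to 0.19 in Kif2c and -0.0098 to 0.52 in Kif5b. Of 317 values of single members under the alternatives, 274 kept direction and side of the threshold, 27 turned sign, 10 came to pass it and 6 no longer did. Where no construction is named, the cause was not tested.

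Same-numbered libraries deviated from their group means with correlations of 0.278, -0.03 and 0.124 across genes, so the numbers were not taken to pair the libraries. With the replicate block, 2781 genes were called higher and 952 lower, spindle kinesins stayed at 1 higher and 1 lower, transport kinesins were 3 higher and 1 lower, and Kif17 had an adjusted p of 0.0118 in limma.

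The partner lists and Bnc1 were also fitted under the 3 scalings and without WT replicate 3, a choice made after seeing the data. Bnc1 stayed lower in each, from -1.19 to -0.79. Of 44 spindle factors, 6 were called lower as deposited, 9 with upper-quartile scaling, 10 with median-ratio scaling, 9 with quantile normalization and 9 without WT replicate 3. Of all 10560 tested genes, 811, 1349, 1535, 1804 and 1041 were called lower in these settings, in the same order. The rise in the list thus went with a rise over all genes.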
